A study of Mus musculus with 6 samples.

Results

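The adipogenic genes examined were the transcription factors *Pparg*, *Cebpa*, *Cebpb*, *Cebpd* and *Zfp423* and the fat genes *Lpl*, *Fabp4*, *Adipoq* and *Plin1*, 9 of the 21853 protein-coding genes in the annotation. They were chosen for their known roles, but with earlier results of these data known. For each gene, a called peak counted as a TSS peak when it overlapped the 1000 bp either side of a protein-coding transcription start site (TSS). Peaks in the gene body or in the 20 kb upstream of it counted as peaks of the locus. The 9 loci held 140 of the 248975 peaks called over 6 libraries, and these peaks merged into 39 of 63840 regions. ATAC-seq, which uses a transposase to tag open chromatin, had been run on skeletal stem and progenitor cells (SSPCs) cultured from tibial and femoral bone marrow to the first passage. There were 3 libraries from young (Y1 to Y3) and 3 from middle-aged (MA1 to MA3) C57BL/6 mice, all untreated and with no engineered allele named. The labels give the ages in words only. They speak of cells from at least 3 mice, but nothing ties a library to 1 mouse, so the spread between libraries may be partly technical.

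Adipogenesis proceeds as a cascade. C/EBPβ and C/EBPδ act early and switch on PPARγ and C/EBPα, which then sustain each other and together activate the genes of the mature fat cell, while ZFP423 commits stromal cells to become preadipocytes. In bone marrow the same progenitors can become osteoblasts or adipocytes, and marrow fat accumulates with age. PPARγ, C/EBPα, C/EBPβ, lipoprotein lipase and FABP4 are also used by macrophages, which marrow cultures can hold.

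The lists held 27628 to 43941 peaks in young and 46364 to 48344 in MA libraries, with Y3 the shortest. Values are therefore given mainly as the percentile rank of a peak within its own list by −log10 q (0 the lowest, 100 the highest), beside its fold enrichment over local background. Ranks too were mostly higher in the MA lists. Among the 10569 genes with a TSS peak in all 6 libraries (48.4% of all), the median rank difference was 4.97 points, MA minus young, and in 30.6% every MA rank lay above every young one, against 0.274% with every one below. With all lists shortened to the 27628 best peaks the median difference was 0.855 points and these shares were 9.51% and 3.71%, so the genome-wide difference was much smaller. The labelled cell type was checked with 12 stromal and 12 macrophage markers. Start sites of 8, 7 and 3 of the 12 stromal markers were called in Y1, Y2 and Y3, and of 8, 9 and 8 in MA1, MA2 and MA3, with *Lepr*, *Prrx1* and *Thy1* in none. Those of 10, 12 and 11 of the 12 macrophage markers were called in the young and of 11, 11 and 10 in the MA libraries, so their start sites were open more often than the stromal ones. Per library, 49.5% to 58.0% of all 21853 genes were called. Summed over a list, the ranks ran from 129 to 297 in young and from 326 to 436 in MA libraries for stromal markers, and from 512 to 652 and from 689 to 728 for macrophage markers. By summed rank both marker lists moved in the same direction as several results below, and as the ranks of all genes. By calls the macrophage list did not. The part of the markers in those results was not tested. In bulk libraries, more cells with an open site and a more open site in each cell cannot be told apart.

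Of the 9 genes, 6, 7 and 5 were called at their TSS in Y1, Y2 and Y3, and 7 in each MA library. Of all 21853 genes, 54.5%, 56.8% and 49.5% were called in Y1, Y2 and Y3 and 57.4%, 57.4% and 58.0% in MA1, MA2 and MA3, so the order of the libraries was much the same. The means for the 9 genes were 6 ± 1 (SD, n = 3) and 7 ± 0 (SD, n = 3), which did not differ beyond the spread (exact permutation test over the libraries, two-sided like all those that follow, p = 0.4; the smallest possible with 3 against 3 is 0.1). The start sites of *Pparg*, *Cebpa*, *Cebpb*, *Cebpd* and *Lpl* were called in all 6 libraries. *Zfp423* was called in 5 libraries and *Fabp4* in 4, and all the missing ones were young. *Adipoq*, which encodes the fat cell hormone adiponectin, and *Plin1*, which encodes the coat protein of fat droplets, had no TSS peak in any library. The regulators were thus called at their start sites in 5 or 6 libraries. The fat genes were called in 6 (*Lpl*), 4 (*Fabp4*) or none (*Adipoq* and *Plin1*). Of all genes, 48.4% were called in all 6. At least 2 more MA than young libraries had a TSS peak for 1 of the 9 genes, *Fabp4*, against 2.78% of all genes, and at least 2 more young ones for 0, against 0.11%.

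**Figure D1:**
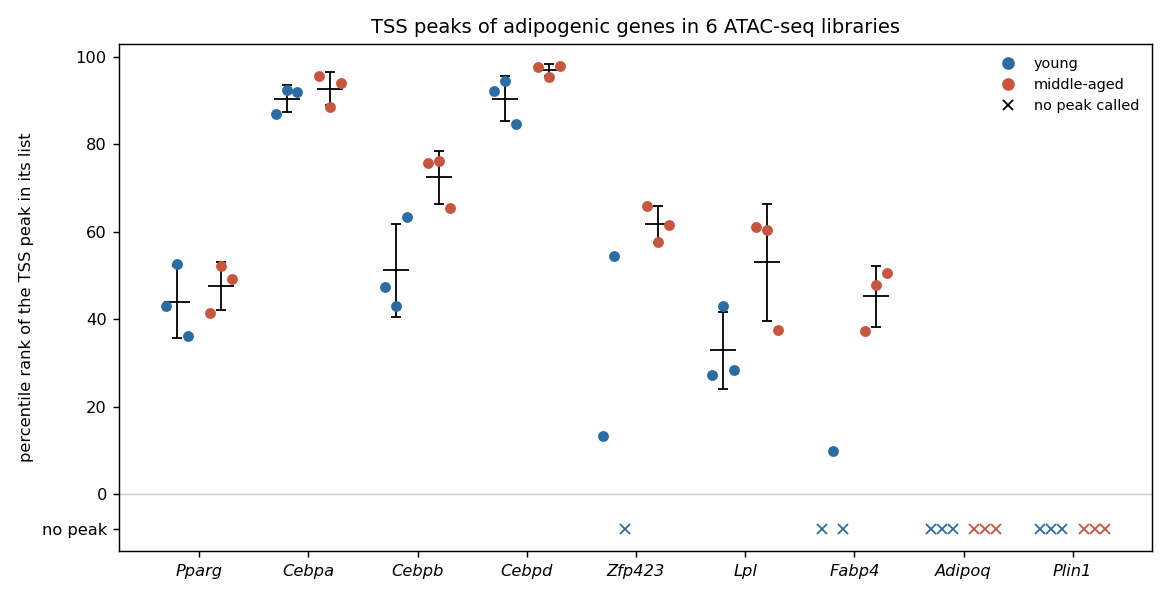
Percentile rank of the best TSS peak within its list (vertical axis, 0 to 100) for the 9 genes in each young (blue) and MA (red) library, with crosses where no peak was called and bars for the mean ± SD where all 3 libraries of a group had a peak. The groups do not overlap for *Cebpb* and *Cebpd*, and the columns of *Adipoq* and *Plin1* hold only crosses.

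*Cebpd* and *Cebpb* encode the early factors of the cascade. The TSS peak of *Cebpd* (ENSMUSG00000071637.5, chromosome 16, plus strand, TSS at 15887286) was among the strongest in every list. It ranked at 92.3, 94.5 and 84.7 in Y1, Y2 and Y3 and at 97.7, 95.5 and 97.9 in MA1, MA2 and MA3. Every MA rank lay above every young one. The fold enrichment was 9.11, 10.4 and 8.11 in young and 13.5, 11.4 and 13.0 in MA libraries, again with no overlap. The mean rank was 90.5 ± 5.11 (SD, n = 3) and 97.0 ± 1.36 (SD, n = 3), a difference of 6.53 points (exact permutation p = 0.1). Mean fold enrichment was 9.21 ± 1.15 (SD, n = 3) and 12.6 ± 1.10 (SD, n = 3), or 1.37 times the young mean (exact permutation p = 0.1). The rank difference lay at percentile 58.5 of all genes called in 6 libraries. Ranks end at 100, which left little room above the young mean of 90.5, so this percentile cannot show how large the difference was. By the height of the peak summit over the genome-wide background, the log2 difference, MA minus young, was 0.878. The median of all genes called in 6 libraries was 0.479. The percentile of *Cebpd* by this measure was not computed. Within the gene, a second region at chr16:15889995-15890293, in the exon but beyond the coding sequence and overlapped by *Spidr*, was called in all 6 libraries. Its rank averaged 64.5 ± 12.6 (SD, n = 3) over the young and 70.9 ± 2.95 (SD, n = 3) over the MA libraries, which overlapped (exact permutation p = 0.7). An upstream region at chr16:15877183-15877455 was called in Y2 and MA3 only.

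*Cebpb* (ENSMUSG00000056501.3, chromosome 2, plus strand, TSS at 167688915) showed the larger difference in rank. Its TSS peak, in chr2:167688567-167689411, ranked at 47.3, 42.9 and 63.3 in Y1, Y2 and Y3. In MA1, MA2 and MA3 it ranked at 75.7, 76.3 and 65.4. The lowest MA value, that of MA3, stood only just above the highest young one, that of Y3. The means were 51.2 ± 10.7 (SD, n = 3) and 72.5 ± 6.12 (SD, n = 3), and the difference of 21.3 points (exact permutation p = 0.1) lay at percentile 93.9 of all genes. Fold enrichment was 4.39, 4.52 and 6.98 in young and 7.42, 7.55 and 5.52 in MA libraries, so by this measure the groups overlapped. The mean fold enrichment was 5.29 ± 1.46 (SD, n = 3) and 6.83 ± 1.14 (SD, n = 3) (exact permutation p = 0.2). With all lists shortened to the 27628 best peaks the *Cebpb* ranks overlapped as well, at a difference of 18.2 points (exact permutation p = 0.4). A region at chr2:167679948-167680267, at −8.8 kb from the TSS and within *Tmem189*, was called in Y1, MA1 and MA3. The bases just upstream of the *Cebpb* TSS are shown because they lie under the peak whose ranks did not overlap, at chr2:167688665-167688914 (plus strand, from the RefSeq promoter table for GRCm38.p6, the assembly of mm10). Capitals mark matches on either strand to the GC box (GGGCGG) and to the EBF motif CCCNNGGG. The EBF match overlaps a GC box, and a pair of GC boxes overlap each other. Among 20138 protein-coding promoters of 300 bases in the table, 47.8% held a GC box and 16.0% an EBF match.
Cebpb promoter: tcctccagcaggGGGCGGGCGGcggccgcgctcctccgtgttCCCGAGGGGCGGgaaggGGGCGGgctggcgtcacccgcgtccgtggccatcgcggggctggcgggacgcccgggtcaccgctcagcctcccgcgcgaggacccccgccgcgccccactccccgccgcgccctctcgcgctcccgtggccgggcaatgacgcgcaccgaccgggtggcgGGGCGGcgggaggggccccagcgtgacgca

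*Pparg* and *Cebpa* form the core of the cascade. *Cebpa* (ENSMUSG00000034957.10, chromosome 7, plus strand, first TSS at 35119293) had ranks close to those of *Cebpd*. They were 87.0, 92.4 and 92.1 in Y1, Y2 and Y3 and 95.7, 88.6 and 94.0 in MA1, MA2 and MA3. The groups overlapped, with means of 90.5 ± 3.00 (SD, n = 3) and 92.8 ± 3.71 (SD, n = 3) and a difference of 2.28 points (exact permutation p = 0.5). Fold enrichment ran from 8.12 to 10.5 in young and from 8.18 to 12.4 in MA libraries (exact permutation p = 0.4). A further region at chr7:35118251-35118713, in an exon of *Gm45091* and within the window of the *Cebpa* TSS, was called in Y1, Y2, MA2 and MA3. A single peak lay further upstream, at chr7:35106763-35106971, in MA2.

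*Pparg* (ENSMUSG00000000440.12, chromosome 6, plus strand, 115360951 to 115490399) has several promoters, which were read separately. The first, at the TSS of Pparg-202 (115360951), gives a coding sequence of 475 codons, the PPARγ1 form that many cell types make. The last, at the TSS of Pparg-201 (115422066), gives the form with 505 codons, PPARγ2, which is largely particular to fat cells. Only the first had a peak of its own in every library. Its ranks were 42.9, 52.7 and 36.1 in Y1, Y2 and Y3 and 41.4, 52.2 and 49.2 in MA1, MA2 and MA3. The 2 groups covered almost the same range, with means of 43.9 ± 8.34 (SD, n = 3) and 47.6 ± 5.56 (SD, n = 3) and a difference of 3.67 points (exact permutation p = 0.7). Fold enrichment averaged 6.05 ± 0.508 (SD, n = 3) over the young and 5.87 ± 0.387 (SD, n = 3) over the MA libraries (exact permutation p = 0.8). The sign of the rank difference depended on the setting: it was −18.3 points with equally long lists, where every MA rank lay below every young one (exact permutation p = 0.1), −1.62 with ranks by fold enrichment and −0.224 without Y3. No direction with age can therefore be given for the PPARγ1 promoter.

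Promoter 2, at the start sites of Pparg-204 and Pparg-206 (115362292 and 115362349), lies so near the first that the same peak reached its window in Y1 and in the 3 MA libraries. Peaks nearer to it were weak. One region, chr6:115361702-115361973, was called in MA2 and MA3 at ranks of 0.27 and 1.58, and another, chr6:115362086-115362379, in MA3 at rank 3.09. Promoter 3, at Pparg-207 (115383699), and promoter 4, the start of the PPARγ2 form, had no peak in any library. The lowest summit pileup called over the genome-wide background was 8 to 13 extended reads per list, so a weaker opening at these sites was not detectable at this depth. The part of the first promoter's peak that lies upstream of the first exon and the bases upstream of the PPARγ2 start are shown because they contrast an open with an uncalled promoter of 1 gene. The first, chr6:115360783-115360950 (plus strand, GRCm38.p6), had 75% G or C and no match to any motif searched. The second, chr6:115421816-115422065 (plus strand, RefSeq promoter table, GRCm38.p6), had 40.8% and 2 matches, in capitals, to the C/EBP motif TTGCNNAA.
PPARγ1 promoter part of the peak: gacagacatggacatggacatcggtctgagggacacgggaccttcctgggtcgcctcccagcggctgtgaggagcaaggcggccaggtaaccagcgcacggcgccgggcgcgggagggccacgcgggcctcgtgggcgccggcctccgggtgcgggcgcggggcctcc
PPARγ2 promoter: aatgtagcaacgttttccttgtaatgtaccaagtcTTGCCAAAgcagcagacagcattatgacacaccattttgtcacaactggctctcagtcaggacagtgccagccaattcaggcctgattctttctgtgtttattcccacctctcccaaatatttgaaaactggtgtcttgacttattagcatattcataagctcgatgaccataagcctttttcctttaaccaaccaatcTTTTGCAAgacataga

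A match of letters is not a bound site, and 10.0% of all promoters in the table held a C/EBP match. Away from the start sites, 7 further regions lay in the *Pparg* locus, of which 4 were called in all 6 libraries. The second strongest by mean rank, chr6:115462894-115463347, covered a *Pparg* coding exon and ranked at 46.3, 60.6 and 38.3 in young and at 46.3, 59.1 and 72.6 in MA libraries. These overlapped (difference 10.9 points, exact permutation p = 0.5). The region at chr6:115480265-115480628, in the last intron (intron 6 of Pparg-201), had the highest mean rank of the 7. It ranked at 42.9, 43.3 and 54.0 in Y1, Y2 and Y3 and at 75.3, 62.8 and 66.8 in MA1, MA2 and MA3. Fold enrichment was 5.47, 5.93 and 6.93 in young and 9.90, 7.84 and 7.92 in MA libraries. Neither measure overlapped between the groups. The means were 46.8 ± 6.29 (SD, n = 3) and 68.3 ± 6.38 (SD, n = 3) for rank, a difference of 21.5 points (exact permutation p = 0.1), and 6.11 ± 0.744 (SD, n = 3) and 8.55 ± 1.17 (SD, n = 3) for fold enrichment (exact permutation p = 0.1). In the intron before it, chr6:115469866-115470204 had ranks of 16.1, 36.4 and 10.6 in young and 62.2, 59.1 and 20.6 in MA libraries, which overlapped, since MA3 lay below Y2 (difference 26.2 points, exact permutation p = 0.2). An intron 1 region at chr6:115375337-115375814 differed by 6.94 points (exact permutation p = 0.5). A neighbour of the last-intron region, chr6:115480684-115481060, was called in 2 young and 2 MA libraries. Upstream, chr6:115343187-115343406 was called in 2 young libraries and MA1, and chr6:115343685-115343903 in Y2 and MA1. Across the *Pparg* locus the first promoter and the last intron thus gave different pictures. The groups overlapped at the promoter and not in the intron, although the difference between these 2 regions was itself not tested. Every MA rank also lay above every young one in 24.3% of all regions called in 6 libraries. The setting of equally long lists, which reversed the promoter difference, was not applied to the intron region.

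**Figure D2:**
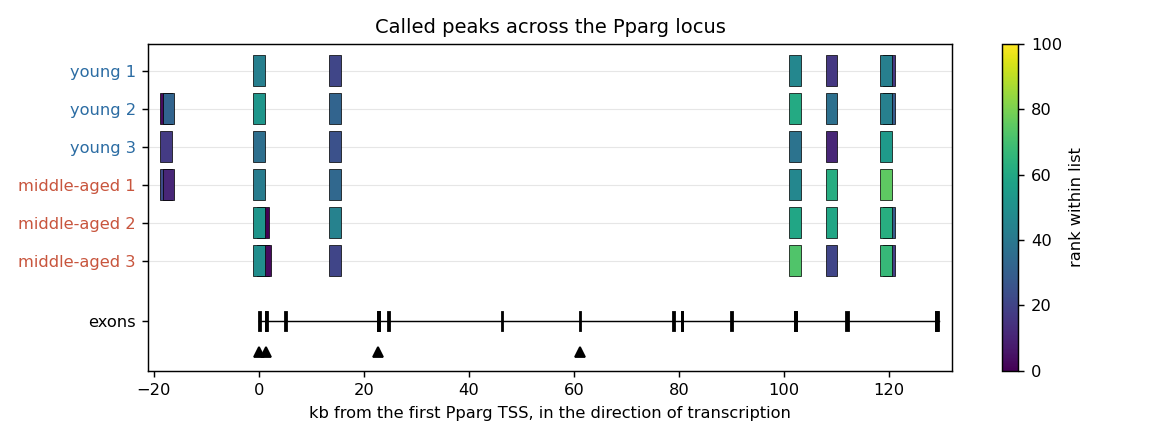
Called peaks of the *Pparg* locus by library (rows), plotted by distance in kb from the first TSS, with colour for the percentile rank within the list, boxes below for exons and triangles for promoters. Marks have a fixed width larger than the peaks. The triangles near 23 and 61 kb, promoters 3 and 4, have no peak above them in any row, while the marks near 120 kb are brighter in the 3 MA rows.

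The 200 bases around the summit of the last-intron region, chr6:115480347-115480546 (plus strand, GRCm38.p6), are shown because this is the *Pparg* region whose groups did not overlap. Capitals mark a match to the AP-1 motif TGANTCA and a GC box on the minus strand.
Pparg last intron: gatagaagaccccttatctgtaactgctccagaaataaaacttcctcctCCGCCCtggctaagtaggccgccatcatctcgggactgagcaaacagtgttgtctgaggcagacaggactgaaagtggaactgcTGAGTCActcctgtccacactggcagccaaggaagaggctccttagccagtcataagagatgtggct

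Such an AP-1 match was present in 15.9% of the summit windows of all regions and in 4 of the 39 windows of the adipogenic loci. C/EBP matches were found in 2 of the 39 windows, against 10.9% of all regions, EBF matches in 5 (8.73%), RUNX matches (TGTGGT) in 3 (21.2%), TATA boxes (TATAAA) in 5 (6.5%) and GC boxes in 12 (19.8%). The hexamer AGGTCA repeated directly with 1 base between, the element that PPARγ and its partner RXR bind, had a match in 0 of the 39 windows and in 0.0172% of all regions.

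*Zfp423* (ENSMUSG00000045333.15, chromosome 8, minus strand, first TSS at 87959595) had a TSS peak in 5 libraries. It ranked at 13.4 in Y1 and 54.5 in Y2, was not called in Y3, and ranked at 65.9, 57.6 and 61.5 in MA1, MA2 and MA3. Fold enrichment was 3.43 and 5.19 in the young libraries with a peak and 6.12, 5.45 and 5.80 in MA ones, so the called values did not overlap. Every MA rank lay above those of the 2 young libraries with a peak. The peak lay at chr8:87958713-87959245, downstream of the TSS over coding sequence at the start of the gene. A weaker peak on the other side of the TSS, at chr8:87960321-87960774, was called in Y2 at rank 8.07 and in MA2 and MA3 at ranks of 5.17 and 4.19. The other 4 promoters of the gene, at TSSs from 87803823 to 87953862, had no peak in any library. In the first intron, chr8:87938704-87939267 was called in Y2 at rank 28.2 and in MA1, MA2 and MA3 at ranks of 31.3, 9.79 and 48.6. Another intronic region, chr8:87663393-87663645, was called in MA2 and MA3 only, at ranks of 1.71 and 12.4. A further one, chr8:87927452-87927875, was called in Y1, MA2 and MA3. These were weak peaks, with summit pileups of 14 to 27 reads. The *Zfp423* locus averaged 2 peaks in young and 5 in MA libraries, and the numbers overlapped.

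Among the fat genes, *Lpl*, which encodes the enzyme that releases fatty acids from circulating lipoproteins, was called at its TSS in every library. The peak (ENSMUSG00000015568.16, chr8:68880404-68880822, TSS at 68880491) ranked at 27.3, 43.1 and 28.4 in Y1, Y2 and Y3 and at 61.1, 60.4 and 37.5 in MA1, MA2 and MA3. MA3 lay below Y2, so the groups overlapped. The mean ranks were 32.9 ± 8.83 (SD, n = 3) and 53.0 ± 13.4 (SD, n = 3), and the difference of 20.1 points (exact permutation p = 0.2) lay at percentile 92.7 of all genes. Fold enrichment was 5.09 ± 0.531 (SD, n = 3) and 5.98 ± 0.908 (SD, n = 3) (exact permutation p = 0.3). The locus held 1 other region, chr8:68881035-68881717, in Y1 and MA1.

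*Fabp4* (ENSMUSG00000062515.3, chromosome 3, minus strand, TSS at 10208576), which encodes a fatty acid carrier of fat cells and macrophages, was the 1 gene whose TSS was called in at least 2 more MA than young libraries. The peak, in chr3:10208528-10208843, was absent from Y1 and Y3 and had rank 9.84 and a pileup of 15 reads in Y2. Its ranks in MA1, MA2 and MA3 were 37.3, 47.9 and 50.5, with pileups of 19, 21 and 25 reads. All 3 MA ranks lay above the only young one. The lowest pileups called over the genome-wide background were 13, 10 and 8 reads in Y1, Y2 and Y3. In MA1, MA2 and MA3 they were 9, 9 and 10 reads. The reason for the absence in Y1 and Y3 was not tested. A region at −4.84 kb from the TSS, chr3:10213319-10213646, went the other way in rank, at 40.6 in Y2 against 22.4 in MA1 and 6.84 in MA2, and was not called in the other 3 libraries.

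*Adipoq* (ENSMUSG00000022878.5, chromosome 16, plus strand, first TSS at 23146536) had no TSS peak, but peaks were called upstream of it. A region at −9.78 kb from the TSS, chr16:23136580-23136935, was called in all 6 libraries. It ranked at 30.9, 9.84 and 24.8 in young and at 2.63, 59.1 and 9.91 in MA libraries, so the spread within the MA group was wider than the difference of 2.02 points between the groups (exact permutation p = 0.9). The summit window, chr16:23136654-23136853 (plus strand, GRCm38.p6), is shown because it is the *Adipoq* region called in every library outside any gene. Capitals mark 1 AP-1, 1 C/EBP and 2 RUNX matches, and it was 1 of the 2 windows with a C/EBP match. The bases upstream of the *Adipoq* TSS, chr16:23146286-23146535 (plus strand, RefSeq promoter table, GRCm38.p6), are given beside it and had no match to any motif searched.
Adipoq upstream region: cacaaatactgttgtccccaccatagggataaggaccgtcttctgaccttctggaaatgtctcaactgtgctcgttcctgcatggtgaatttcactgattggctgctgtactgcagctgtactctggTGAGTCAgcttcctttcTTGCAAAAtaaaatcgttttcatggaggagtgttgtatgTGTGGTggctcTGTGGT
Adipoq promoter: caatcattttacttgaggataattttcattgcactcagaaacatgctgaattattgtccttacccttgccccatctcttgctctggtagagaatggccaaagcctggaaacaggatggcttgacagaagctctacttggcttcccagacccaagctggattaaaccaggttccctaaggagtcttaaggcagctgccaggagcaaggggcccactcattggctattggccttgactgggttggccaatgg

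A second upstream region of *Adipoq*, chr16:23127599-23128276, is the start site of *Rfc4*, a DNA replication gene. Its ranks were 67.8, 76.7 and 17.5 in young and 80.8, 76.8 and 82.1 in MA libraries, which did not overlap (difference 25.9 points, exact permutation p = 0.1). Y3 lay far below the other libraries, and MA2 and Y2 were nearly level. Fold enrichment overlapped between the groups, at young and MA means of 7.72 ± 2.48 (SD, n = 3) and 11.2 ± 0.922 (SD, n = 3) (exact permutation p = 0.2). The 2 remaining regions, chr16:23135843-23136092 and chr16:23151490-23151689 in intron 1, were called in 1 MA library each. *Plin1* (ENSMUSG00000030546.14, chromosome 7, minus strand, first TSS at 79732903) had 4 promoters without a peak. A region over its own coding sequence, chr7:79721342-79721962, was called in every library but Y3, at ranks of 18.6 and 51.0 in Y1 and Y2 and 38.4, 27.1 and 26.2 in MA1, MA2 and MA3. The region at chr7:79742880-79743288, called in the same 5 libraries, is the start site of *Pex11a* and *Wdr93*. It ranked at 46.3 and 58.6 in Y1 and Y2 and at 33.5, 35.2 and 28.6 in MA1, MA2 and MA3, so the called young values were the higher ones. A weak peak at chr7:79747833-79748148 was called in MA3.

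**Figure D3:**
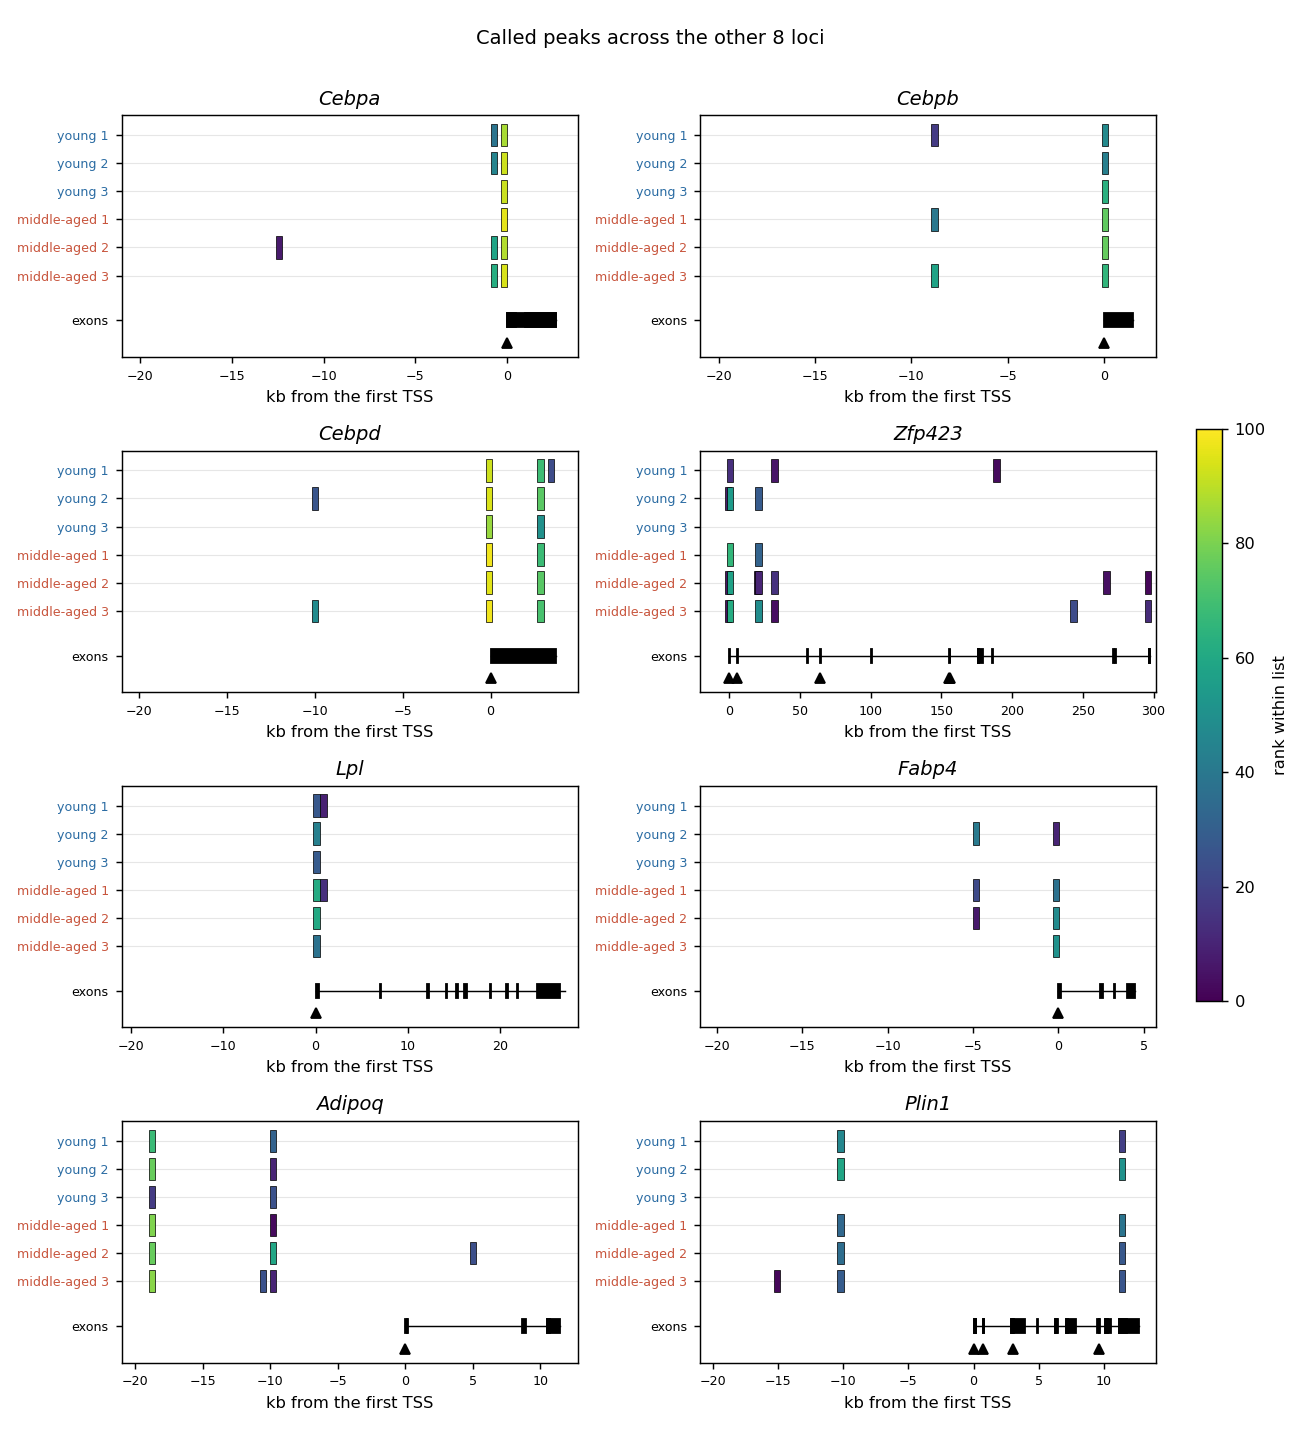
Called peaks in the loci of the other 8 genes by library (rows), plotted by distance in kb from the first TSS in the direction of transcription, with colour for the percentile rank, boxes for exons and triangles for promoters. Marks have a fixed width. *Cebpa* and *Cebpd* carry the brightest marks at 0 kb, *Fabp4* has its TSS mark in 1 young and 3 MA rows, and *Adipoq* and *Plin1* have none at a triangle in any row.

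Counted over the 9 loci, Y1, Y2 and Y3 had 23, 24 and 13 peaks and MA1, MA2 and MA3 had 22, 28 and 30. The means were 20 ± 6.08 (SD, n = 3) and 26.7 ± 4.16 (SD, n = 3), which gives a ratio of 1.33 (exact permutation p = 0.3). The whole lists differed by a ratio of 1.32. Per 10000 peaks of the list, the loci held 6.40, 5.46 and 4.71 peaks in young and 4.75, 5.99 and 6.21 in MA libraries, a ratio of 1.02 (exact permutation p = 0.9). The ratio in the adipogenic loci was thus close to that of the whole lists. For single genes the peak numbers of the age groups overlapped in all 9 loci. This was the usual outcome, since 5.09% of all gene loci had every MA number above every young one and 0.0732% every one below.

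By rank, 2 of the 5 genes called in all 6 libraries, *Cebpb* and *Cebpd*, had every MA rank above every young one, against 30.6% of genes. Every MA rank was below for 0 of the 5, against 0.274% of genes. The median rank difference of the 5 was 6.53 points, against 4.97 for all genes. With 5 genes, 2 is near the share among all genes. By region, 4 of the 12 called in all 6 libraries had every MA rank above every young one, against 24.3% of all such regions, and 0 every one below, against 0.495%. The 4 were the TSS regions of *Cebpb* and *Cebpd*, the last-intron region of *Pparg* and the *Rfc4* start site, of which the *Cebpb* and *Rfc4* sites overlapped by fold enrichment. The median difference was 8.93 points for the 12 and 6.74 for all 22403 regions. At least 2 more MA than young libraries had a peak in 4 of the 39 regions, against 13.7%, and at least 2 more young ones in 0, against 0.741%.

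**Figure D4:**
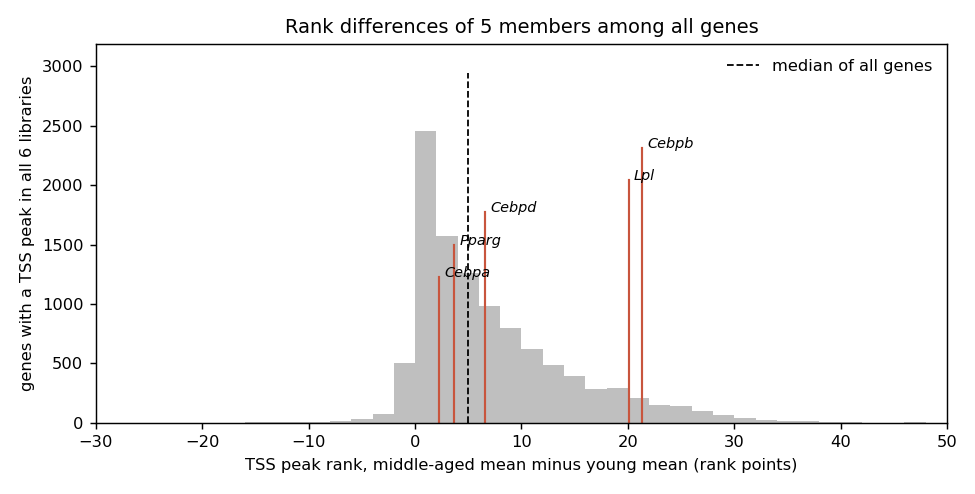
Histogram of the TSS rank difference, MA mean minus young mean in rank points (horizontal axis), over the genes called in all 6 libraries (vertical axis, number of genes), with red lines for 5 adipogenic genes and a dashed line for the median of 4.97. *Cebpa* and *Pparg* lie below the median, *Cebpd* just above it, and *Lpl* and *Cebpb* in the upper tail at percentiles 92.7 and 93.9.

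Promoters with and without a peak differed in base composition. The RefSeq table held 9 promoters of 6 of the genes (*Cebpb*, *Pparg*, *Cebpa*, *Plin1*, *Zfp423* and *Adipoq*). It held none for *Cebpd* and *Lpl*, which were called in all 6 libraries, or for *Fabp4*, called in 4. The ratio of observed to expected CpG dinucleotides in 300 bases was 1.03 for *Cebpb*, 0.909 for the first *Pparg* promoter and 0.853 for *Cebpa*, all called in 6 libraries. It was 0.685 for the first *Zfp423* promoter, called in 5, and 0.467 for the second *Pparg* promoter, called in 2 at the RefSeq start. The uncalled promoters had lower values, with 0.227 for an inner *Zfp423* promoter, 0.170 for the PPARγ2 start, 0.0862 for *Plin1* and 0 for *Adipoq*. Genome-wide the same gradient held: a peak was called in all 6 libraries at 82.0% of the 6985 promoters with a ratio of at least 0.75 and at 6.6% of the 5214 with a ratio under 0.25, and in no library at 6.0% and 86.0%. Among these 9 promoters, the 3 called in all 6 libraries and the 4 called in none were of the most common kind in their CpG class. Those called in 5 and in 2 libraries were not.

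**Figure D5:**
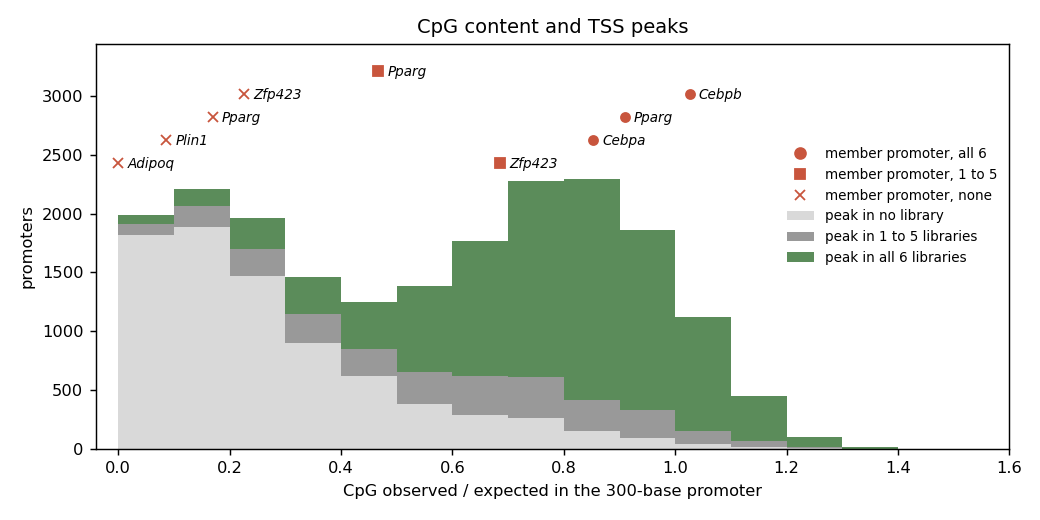
Stacked histogram of the ratio of observed to expected CpG (horizontal axis) in 20138 protein-coding promoters, coloured by whether a TSS peak was called in none, 1 to 5 or all 6 libraries, with red marks above for the adipogenic promoters at arbitrary heights. The crosses of *Adipoq*, *Plin1*, the PPARγ2 start and an inner *Zfp423* promoter lie below 0.25, and the circles of *Cebpa*, *Pparg* and *Cebpb* above 0.75.

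Other genes of fat formation were counted in 3 lists, beside 49.5% to 58.0% of all genes called at a TSS per library. Of 17 further regulators, 16, 17 and 13 were called at their TSS in young and 16, 17 and 16 in MA libraries. Among the 13 called in all 6, 4 had every MA rank above every young one, against 30.6% of genes. Of 10 inhibitors of adipogenesis, 7, 7 and 8 were called there in young and 8, 7 and 8 in MA libraries, with *Dlk1*, the classic preadipocyte inhibitor, and *Wnt10b* in none. Of the 7 inhibitors called in all 6, 4 had higher ranks without overlap, against the same 30.6%. Of 25 genes of fat storage, breakdown and secretion, 14, 18 and 12 were called there in young and 18, 18 and 19 in MA libraries. Of the 12 of them called in all 6, 6 had higher ranks without overlap, again against 30.6% of genes. A separate 5 of the 25, the adipokine genes *Lep*, *Retn* and *Cfd* and the metabolic genes *Cidec* and *Gpd1*, had no peak in any library. None of the 3 lists had a gene with every MA rank below every young one, a pattern found in 0.274% of all genes called in 6 libraries. The median rank differences were 5.64, 7.59 and 6.56 points for the 3 lists, against 4.97 for all genes. For 10 osteoblast transcription factors the median was 12.7 points over the 6 called in every library. Higher ranks without overlap were found for 2 of these 6, against 30.6% of genes.

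By the fixed rule the genes named are the 5 with the largest rank differences among those without overlap between the groups, and those gained in at least 2 libraries. *Ebf3*, encoding a factor of marrow stromal cells, differed by 33.7 points. It ranked at 49.9, 56.9 and 21.6 in Y1, Y2 and Y3 and at 70.7, 82.7 and 76.1 in MA1, MA2 and MA3, with Y3 far below the other libraries. *Zfp521*, whose product restrains adipocyte commitment, ranked at 51.1, 59.7 and 13.9 in young and at 65.1, 67.3 and 72.3 in MA libraries, a difference of 26.7 points. *Cd36*, encoding a fatty acid transporter of fat cells and macrophages, ranked at 29.9, 46.6 and 12.0 and at 48.6, 55.0 and 49.4, a difference of 21.5 points. For *Pnpla2*, the first lipase of fat breakdown, the difference was 17.8 points, and for *Srebf1*, a regulator of lipid synthesis, 14.8 points. Groups of 3 without overlap always give the smallest p possible (exact permutation p = 0.1), so this value adds nothing for the 5. The same pattern held for 30.6% of all genes called in 6 libraries. Genes that further and genes that restrain adipogenesis were both among the 5 named. *Mgll*, which encodes the last lipase of fat breakdown, had a TSS peak in 0 young and 3 MA libraries, at ranks of 28.2, 6.84 and 17.2. *Angptl4*, which encodes an inhibitor of lipoprotein lipase, had one in Y2 at rank 38.0 and in the 3 MA libraries at ranks of 18.0, 16.0 and 23.2, so its only young peak ranked highest.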

How the data were processed

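The study sequenced ATAC libraries of SSPCs, 3 young and 3 middle-aged. The authors converted base calls with bcl2fastq (named in the submitters' processing notes), aligned reads to mm10 with Bowtie2, removed duplicates with Sambamba and called peaks per library with MACS; a shift for the transposase offset is not stated. The authors deposited for each peak a score (a whole-number form of the −log10 q), a fold enrichment over local background, and the −log10 of the p-value and of the q-value. Their DiffBind comparison needs reads and was not repeated.

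Peaks were assigned to 54361 start sites of protein-coding transcripts (GENCODE, mm10). Start sites within 500 bp were joined into a promoter, and peaks overlapping by 1 bp into a region. Ranks were taken within each list by −log10 q. Summit pileups were solved from fold and −log10 p under the caller's Poisson model and tested on simulated data. The solution was within 0.5% of the −log10 p for over 99% of peaks in each list. The lowest background of a list, its genome-wide level and a measure of depth, was 1.65 to 3.75 extended reads per base in young and 2.40 to 2.79 in middle-aged libraries. Means were compared with exact permutation tests over 20 assignments, two-sided, and counting intervals were not computed, since the lists hold no read totals. Analyses used Python 3.11.15, pandas 2.3.3, numpy 2.4.6 and scipy 1.17.1.

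The members, gene lists, motifs and tests were chosen with earlier results of these data known. The CpG comparison was chosen after peaks at these promoters had been seen. Named regions were those at a promoter, the 2 others of highest mean rank per locus, and those differing by 2 or more libraries or without overlapping ranks. Named genes of other lists were those gained or lost in 2 or more libraries and the 5 with the largest non-overlapping rank difference in each direction. The settings varied were a minimum −log10 q of 5, equally long lists, thinning to the lowest background, other windows, summit overlap, ranks by fold, summit heights, reciprocal overlap, a replicate block and leaving out each library.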

Additional observations from a re-analysis of the deposited data

How the results depend on the processing

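Of the 5 genes called in every library, the number with every MA TSS rank above every young one moved from 2 to 1 with equally long lists (*Cebpd*, against 9.51% of all genes, and with *Lpl* no longer called in all 6) and to 1 with ranks by fold enrichment (*Cebpd*, against 23.3%). It ran from 2 to 3 when 1 library was left out, while the share of all genes ran from 32.7% without Y3 (3 of 6 adipogenic genes) to 58.7% without Y2 (3 of 5). The *Pparg* difference reversed to −18.3 points with equally long lists and to −1.62 by fold enrichment, and ran from −0.224 to 8.07 points when 1 library was left out, negative without Y3. The cause was not tested. The differences of *Cebpa*, *Cebpb*, *Cebpd* and *Lpl* kept their sign in every alternative run in rank points, at 0.00362 to 4.37, 17.2 to 27.4, 3.65 to 12.0 and 15.3 to 27.8 points. By summit height over the genome-wide background, *Cebpa* and *Cebpd* had the groups apart, against 60.8% of all genes. The number of regions with higher ranks ran from 4 to 7 when 1 library was left out, with 7 of 12 without MA3 (30.7% of all regions), 6 of 12 without Y2 (50.5%) and 5 of 15 without Y3 (26.0%). With reciprocal overlap it was 3 of 10. The difference in the number of adipogenic genes called at a TSS ran from 0.5 without Y3 to 1.5 without Y2, and the ratio of locus peaks from 1.13 to 1.48, with 1.03 for equally long lists.

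Both ages carry the replicate numbers 1 to 3. With that number as a replicate block, the difference in the number of adipogenic genes called at a TSS was 1 (exact sign permutation of 3 pairs, two-sided p = 0.5), the ratio of locus peaks 1.48 (exact sign permutation, two-sided p = 0.5), and every pair was higher for 3 of 5 genes, against 46.6% of all genes, and for 6 of 12 regions, against 40.3% of all regions. Deviations of equal-numbered libraries correlated at 0.00276, −0.00309 and −0.0414 over 22403 regions. These values gave no sign that a shared number marks a pair, but 3 libraries per group cannot exclude one.

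The smallest p of 0.1 keeps any single difference from passing 0.05. Peak lists hold no value for sites that were not called, so an absent peak means only that none was called. Y3, with the lowest background and the shortest list, lacked the peaks of *Zfp423*, *Fabp4* and *Plin1*. Y1, with the highest background (3.75 extended reads per base), lacked those of *Fabp4* as well. The part of depth in these absences was not tested.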
